A study of Mus musculus with 17 samples.

Results

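The regions described here are those of the major histocompatibility complex (MHC) class II genes and of Ciita, the gene for their coactivator. They were chosen by name: every row of the deposited table whose nearest start site or overlapping transcript was assigned to Ciita, H2-Aa, H2-Ab1, H2-Eb1, Cd74, H2-DMa, H2-DMb1, H2-DMb2, H2-Oa or H2-Ob. This gave 60 of the 66177 accessible regions, 58 through the nearest start and 2, both in Ciita introns, through the transcript alone. Ciita held 11 regions, Cd74 9, H2-Ab1 8, H2-Aa 7, H2-Eb1 7, H2-DMb1 6, H2-Ob 5, H2-DMa 4, H2-DMb2 2 and H2-Oa 1. The table annotated 18 of them as promoter and 42 as not.

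The assay was ATAC-seq, in which a transposase cuts open chromatin and leaves sequencing adapters there, and 16 libraries of sorted mouse B lineage cells were measured. Naive B cells (nB, B220+ GL7- Fas-, lymph node of naive male mice) gave 3 C and 2 KO libraries. Germinal center B cells specific for the antigen phycoerythrin (GCB, B220+ Fas+ GL7+ PE+, lymph node) gave 2 C and 4 KO libraries, each from a pool of mice of a single sex. Bone marrow plasma cells (BMPC, CD138+, all from female mice) gave 3 libraries in C and 2 in KO. Both of the latter cell types were taken 30 days after immunization with PE. All mice were adults homozygous for floxed Dnmt3a and floxed Dnmt3b (Dnmt3atm3.1Enl and Dnmt3btm5.1Enl in the labels, while the methods give the former another number) on a B6;129S4 background. KO mice also carried 1 copy of a Cre recombinase active in the B lineage and so lacked both de novo DNA methyltransferases in cells that had expressed it. C mice were littermates without Cre. Sex went with cell type for nB and BMPC, so that sex and cell type cannot be told apart in that contrast, and the only labels on batches were the GCB pool names.

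Class II molecules present peptides from internalized antigen to CD4+ T cells. H2-Aa with H2-Ab1 and H2-Eb1 encode chains of the surface molecules, Cd74 encodes the invariant chain that holds the groove during transport, H2-DMa with H2-DMb1 and H2-DMb2 encode the DM peptide exchangers, and H2-Oa with H2-Ob encode DO, an inhibitor of DM found mainly in B cells. Their promoters share an X box, bound by the RFX complex, and a Y box, bound by NF-Y, and the CIITA protein is recruited to the factors bound there. Ciita is transcribed from alternative promoters called pI, pIII and pIV, with pIII the main one in B cells, and plasma cells are known to lose class II expression.

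The pattern that the class II promoters share was looked for in the regions as letters: an X box ACNGATG, a Y box ATTGG, and a pair of them on the same strand with 10 to 30 bases between. Both strands were searched in mm9 sequence. A pair lay in 5 of the 60 regions (8.33%) and in 4 of the 18 annotated as promoter (22.2%), against 47 of 14308 promoter regions (0.328%) and 220 of 65893 regions of the table (0.334%). Each of the 5 was the region nearest the start of its gene. The windows are shown because they carry what these starts share; capitals mark the X box and, where the window reaches it, the Y box, and all are written on the plus strand, on which these genes are transcribed. The windows of H2-DMa and H2-DMb1 were kept to 30 bases around the X box, since GENCODE vM1 places them in transcribed leader sequence.
H2-Ab1 (chr17:34400068-34400153): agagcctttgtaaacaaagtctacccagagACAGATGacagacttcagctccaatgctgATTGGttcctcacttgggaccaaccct
H2-Eb1 (chr17:34442694-34442814): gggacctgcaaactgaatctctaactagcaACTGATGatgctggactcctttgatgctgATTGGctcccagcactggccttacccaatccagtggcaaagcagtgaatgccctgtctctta
H2-DMb2 (chr17:34282044-34282164): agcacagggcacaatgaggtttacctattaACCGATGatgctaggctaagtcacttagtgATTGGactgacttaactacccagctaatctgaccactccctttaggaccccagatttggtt
H2-DMb1 (chr17:34290033-34290062): gtttacctagtaACTGATGatgctaggctg
H2-DMa (chr17:34272450-34272479): ttctcctcagcgACTGATGatgttaaacta
The boxes stood 22 bases apart at H2-Ab1 and H2-Eb1 and 23 bases apart at the 3 DM genes. Singly, the short patterns were common: 35.0% of the 60 regions and 21.5% of all regions held an X box, and 50.0% and 46.3% a Y box. The start regions of H2-Aa, H2-Oa and H2-Ob held both patterns, but not as such a pair. The search took exact letters only, so a missing pair does not show that the boxes are absent. In the promoters that RefSeq gives on GRCm38.p6, each a window of 300 bases, 8 entries for 7 of the genes matched, and 3 of the 8 held a pair (H2-DMb1, H2-DMb2 and H2-Eb1), against 52 of 32851 promoters (0.158%). Ciita, Cd74 and H2-Ab1 had no entry.

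Accessibility is given as RPPM, the reads in a region per 1000000 reads in all regions of the library. In nB the class II starts and the Ciita start were all open, and in C libraries the mean fell from nB through GCB to BMPC at 9 of the 10 genes, H2-Aa being the exception. Differences between groups were tested with limma on log2(RPPM + 1), and a region was called higher or lower if it changed by 2-fold or more with a Benjamini-Hochberg adjusted p no larger than 0.01. Fold changes are on this log2 scale, which understates changes at low values. Across all 60 regions, 35 were called lower in C BMPC than in C nB and 0 higher, where 20.1% and 18.0% of all regions were called lower and higher. The median log2 fold change of the 60 was -1.30, and that of all regions was 0.03. The p-values set a difference between groups against the spread between libraries within groups, which limma estimated over all groups and regions. GCB libraries were pools, so their spread is not that between single mice. In sorted bulk cells, fewer open cells and less opening per cell cannot be told apart.

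At the start regions of the surface α and β chain genes, nB libraries were the highest. The H2-Aa region (chr17:34424022-34425226) measured 94.5, 88.7 and 90.3 RPPM in C nB, 34.3 and 38.9 in C GCB and 35.1, 42.9 and 39.4 in C BMPC. In KO it measured 90.1 and 88.0 in nB, 38.5, 35.6, 30.3 and 30.1 in GCB and 30.6 and 34.9 in BMPC. All 5 nB libraries lay far above all others, while GCB and BMPC overlapped. On the log2 scale, limma gave -1.30 ± 0.13 (SE, adjusted p = 9.65e-09) to GCB and -1.20 ± 0.12 (adjusted p = 1.25e-09) to BMPC, and 0.09 ± 0.13 from GCB to BMPC (adjusted p = 0.584). H2-Eb1 (chr17:34442473-34443024) was likewise highest in nB, at 60.2, 65.9 and 58.4 RPPM in C nB, 24.2 and 31.9 in C GCB and 19.8, 23.5 and 20.6 in C BMPC. Its KO libraries read 59.1 and 68.3 in nB, 20.9, 14.6, 18.0 and 31.5 in GCB and 18.6 and 18.1 in BMPC. The GCB libraries of this region were spread, from below every BMPC library to well above, and the change was -1.12 ± 0.20 to GCB (adjusted p = 5.61e-05) and -1.49 ± 0.18 to BMPC (adjusted p = 5.34e-08). The first of these was -0.93, under 2-fold, without the first C GCB library. H2-Ab1 (chr17:34399817-34400555) read 60.4, 65.9 and 72.0 RPPM in C nB, 36.9 and 38.4 in C GCB and 29.3, 42.1 and 35.8 in C BMPC. In KO the values were 64.5 and 64.6 in nB, 23.1, 32.5, 35.1 and 33.6 in GCB and 28.9 and 26.9 in BMPC. Every nB library exceeded every other, but the change from nB to BMPC, -0.88 ± 0.14 in C (adjusted p = 6.5e-06), was short of 2-fold; in KO it was -1.18 ± 0.18 and was called (adjusted p = 2.45e-06).

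**Figure D1:**
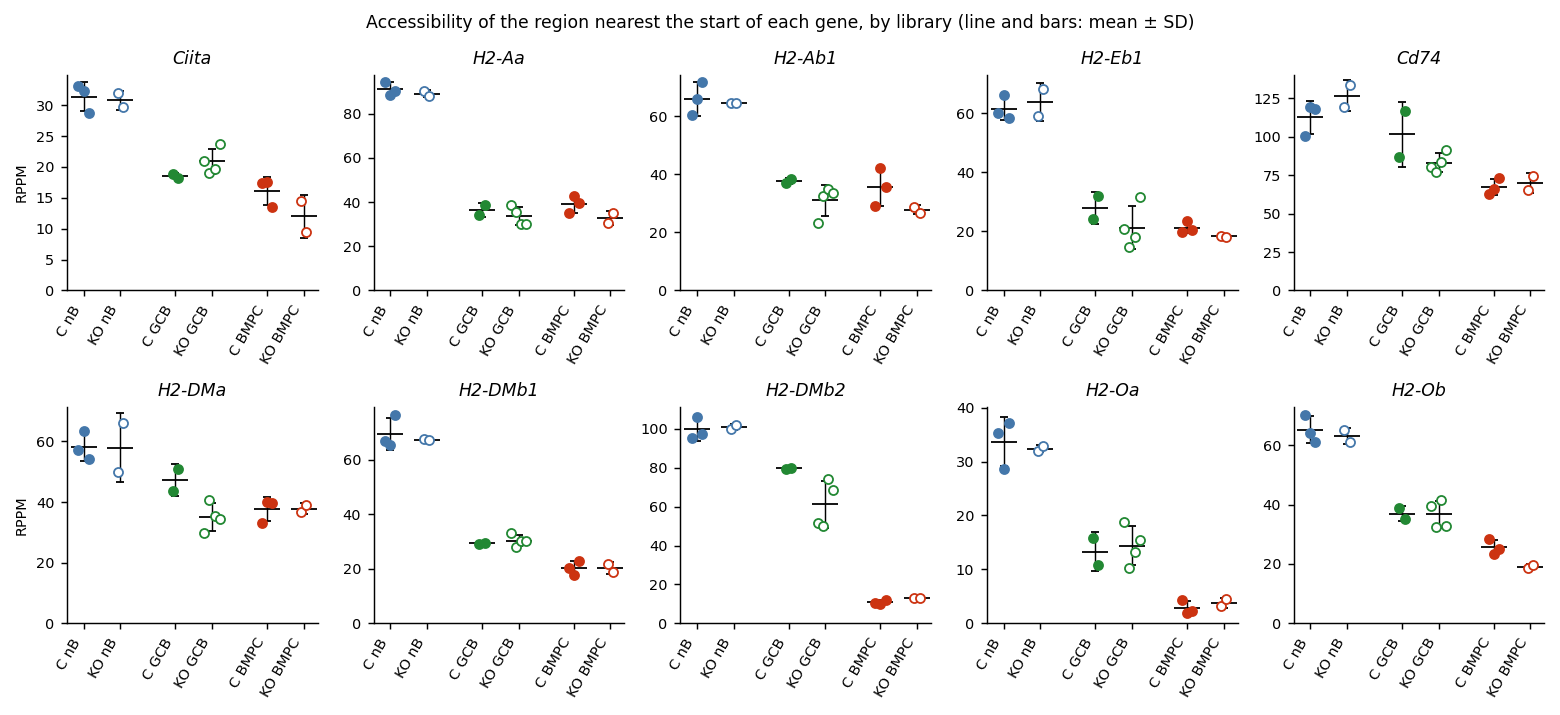
Accessibility (RPPM, from 0) of the region nearest the start of each of the 10 genes; each point is a library, filled for C and open for KO, with the group mean and SD. The nB libraries are the highest at every gene except for an overlap with a C GCB library at Cd74 and at H2-DMa, and H2-Oa is the lowest gene in BMPC.

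Of the genes that act in the endosome, Cd74 had the highest start per kb in both C nB and C BMPC. The Cd74 region (chr18:60962895-60963720) read 100.4, 119 and 118 RPPM in C nB, 86.6 and 117 in C GCB and 63.1, 66.2 and 72.9 in C BMPC. Its KO values were 119.6 and 134 in nB, 80.4, 77.0, 83.3 and 91.6 in GCB and 65.5 and 74.3 in BMPC. One of the C GCB libraries lay within the nB range, no difference from nB was shown in C GCB (-0.16 ± 0.12, adjusted p = 0.287), and the BMPC libraries lay below all others at -0.73 ± 0.11 (adjusted p = 1.07e-06), which is under 2-fold. H2-DMa (chr17:34272222-34272898, whose center lay 433 bases from the start and which the table did not annotate as promoter) read 57.0, 63.3 and 54.2 RPPM in C nB, 43.5 and 51.1 in C GCB and 33.0, 40.0 and 39.7 in C BMPC. In KO it read 49.8 and 65.9 in nB, 29.7, 40.7, 35.5 and 34.3 in GCB and 36.6 and 39.0 in BMPC. Its change to BMPC, -0.62 ± 0.13 (adjusted p = 0.00022), was the smallest of the 10 starts.

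The paralogous DMβ genes were measured at separate starts. H2-DMb1 (chr17:34289582-34290484) read 66.7, 65.6 and 76.3 RPPM in C nB, 29.0 and 29.5 in C GCB and 20.3, 17.9 and 22.7 in C BMPC. Its KO libraries read 67.4 and 67.3 in nB, 33.0, 28.0, 30.3 and 30.1 in GCB and 21.9 and 18.9 in BMPC. The groups of the 3 cell types did not overlap, and the step from nB to GCB was the larger (-1.22 ± 0.14 against -0.51 ± 0.14 from GCB to BMPC, adjusted p = 8.72e-08 and 0.0033). H2-DMb2 (chr17:34281605-34282382) read 95.5, 106 and 97.3 RPPM in C nB, 79.6 and 80.1 in C GCB and 10.4, 9.85 and 12.1 in C BMPC. Its KO libraries read 99.9 and 102 in nB, 51.8, 50.3, 74.1 and 68.5 in GCB and 13.2 and 13.1 in BMPC. Here the step from nB to GCB was -0.32 ± 0.15 in C (adjusted p = 0.0857) and that from GCB to BMPC was -2.78 ± 0.15 (adjusted p = 1.98e-14). The genes are near copies of each other, so reads from sequence they share could be split between them. Of the DO genes, H2-Oa (chr17:34229119-34229869), its only region, read 35.3, 28.6 and 37.2 RPPM in C nB, 15.8 and 10.8 in C GCB and 4.29, 1.82 and 2.34 in C BMPC. In KO it read 31.9 and 32.9 in nB, 18.7, 10.2, 13.2 and 15.4 in GCB and 3.16 and 4.48 in BMPC. Its call from nB to GCB in C (-1.29 ± 0.26, adjusted p = 0.000244) was lost without the second C GCB library, at -1.04 (adjusted p = 0.0167). The 3 cell types did not overlap, and the change from nB to BMPC in C, -3.23 ± 0.24 (adjusted p = 3.92e-12), was the largest of the 10 starts. H2-Ob (chr17:34376330-34377203) read 70.2, 64.2 and 61.2 RPPM in C nB, 38.7 and 35.1 in C GCB and 28.4, 23.2 and 25.1 in C BMPC. In KO it read 65.0 and 61.2 in nB, 39.6, 32.5, 41.6 and 32.9 in GCB and 18.5 and 19.6 in BMPC. Cell types were again separate, with a smaller change from nB to BMPC in C of -1.32 ± 0.13 (adjusted p = 8.07e-10).

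Per kb of region, the 10 starts in C nB ran from Cd74 at 136 ± 13.0 RPPM per kb (SD, n = 3) and H2-DMb2 at 128 ± 7.40 down to Ciita at 45.0 ± 3.39 and H2-Oa at 44.9 ± 6.01. In C BMPC the order changed: Cd74 was still first at 81.6 ± 6.05 RPPM per kb, H2-DMa second at 55.5 ± 5.80, and H2-DMb2 and H2-Oa last at 13.9 ± 1.54 and 3.75 ± 1.73. Ciita and H2-Oa lay within each other's SD in nB. Of the 5 genes whose region held an X-Y pair, the change from nB to BMPC in C ranged from -0.62 at H2-DMa to -3.10 at H2-DMb2, nearly the whole range of the 10.

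At Ciita itself, regions lay both at the starts and within the gene. GENCODE vM1 gives Ciita 5 transcript starts, at chr16:10480237, at 10488271 to 10488392 and at 10489876, in the order in which pI, pIII and pIV are known to lie. Accessible regions covered the middle group and the most downstream start, and none covered the most upstream one. The region over the middle group (chr16:10487853-10488549) read 33.1, 32.2 and 28.7 RPPM in C nB, 18.9 and 18.3 in C GCB and 17.4, 17.5 and 13.5 in C BMPC. Its KO libraries read 31.9 and 29.7 in nB, 20.9, 19.1, 19.7 and 23.8 in GCB and 14.5 and 9.52 in BMPC. All nB libraries were above all others, and the 3 cell types did not overlap. The change from nB to BMPC was -0.92 ± 0.16 in C (adjusted p = 2.22e-05), under 2-fold, and -1.32 ± 0.20 in KO (adjusted p = 3.37e-06), which was called. The region over the start farthest downstream (chr16:10489532-10490128) was weaker, at 14.4, 11.9 and 10.4 RPPM in C nB and 5.85, 5.84 and 7.47 in C BMPC, a change of -0.84 ± 0.24 (adjusted p = 0.00458). At both covered starts the fall from nB to BMPC in C was under 2-fold. The 150 bases before the start at 10488271 are shown with the complement of a Y box in capitals, since this stretch lies at the more accessible of them.
Ciita (chr16:10488121-10488270): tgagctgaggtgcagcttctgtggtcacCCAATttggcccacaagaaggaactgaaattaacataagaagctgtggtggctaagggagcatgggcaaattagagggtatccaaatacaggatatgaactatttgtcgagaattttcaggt

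Inside the gene lay the 4 regions with the largest falls among the 60, each over 4 on the log2 scale from nB to BMPC in C with the pseudocount of 1 RPPM. The order depends on the pseudocount, and with 5 RPPM the H2-DMb2 start came before 2 of them. The region chr16:10495875-10496507, in an intron, read 31.4, 32.6 and 36.7 RPPM in C nB, 32.1 and 39.3 in C GCB and 1.17, 0 and 0.311 in C BMPC. KO libraries read 27.5 and 31.5 in nB, 30.8, 24.2, 32.9 and 23.8 in GCB and 0.243 and 0 in BMPC. GCB overlapped nB here and BMPC lay apart, so that the change from nB was 0.08 ± 0.26 to GCB (adjusted p = 0.818) and -4.61 ± 0.23 to BMPC (adjusted p = 2.87e-15). Its central 200 bases are shown, with a Y box in capitals, as the sequence with the largest change.
Ciita intron (chr16:10496091-10496290): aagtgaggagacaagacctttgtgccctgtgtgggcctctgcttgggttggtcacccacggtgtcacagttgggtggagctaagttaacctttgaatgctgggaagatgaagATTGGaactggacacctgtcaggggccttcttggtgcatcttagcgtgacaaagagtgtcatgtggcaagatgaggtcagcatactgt
The region chr16:10515866-10516767, also intronic and the most accessible Ciita region per kb in nB, read 75.0, 68.2 and 68.3 RPPM in C nB, 43.1 and 40.3 in C GCB and 4.16, 2.92 and 2.34 in C BMPC. In KO these were 78.1 and 78.1, 40.8, 30.6, 39.5 and 27.3 and 2.31 and 2.80 in the same order. It fell in steps without overlap, by 4.13 on the log2 scale from nB to BMPC in C (SE 0.17, adjusted p = 8.42e-17). chr16:10508703-10509357, which overlaps an exon, read 25.3, 26.9 and 30.0 RPPM in C nB, 16.7 and 19.2 in C GCB and 0.520, 0.730 and 0.156 in C BMPC, a change of -4.29 ± 0.22 from nB to BMPC (adjusted p = 2.97e-15). chr16:10491810-10492197, which overlaps an exon of a short Ciita entry in GENCODE vM1, read 19.0, 26.9 and 24.8, 11.4 and 9.84 and 0.390, 0.182 and 0.311 RPPM in the same groups, a change of -4.23 ± 0.24 (adjusted p = 3.42e-14). In KO BMPC these last regions ranged from 0.121 to 0.747 RPPM.

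**Figure D2:**
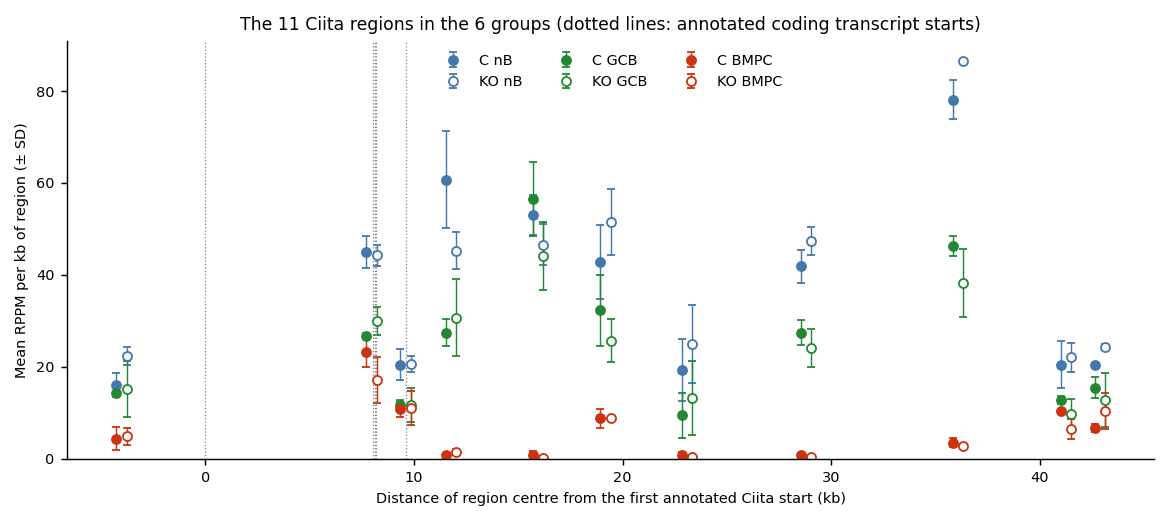
Mean accessibility per kb of region (± SD over libraries) of the 11 Ciita regions against the distance of their centers from the most upstream annotated start (kb); filled points are C, open points KO, dotted lines annotated starts. In BMPC the regions at the starts keep 10.7 to 23.2 RPPM per kb in C. In the gene body, 4 regions lie between 0.715 and 0.797 and the others between 3.48 and 10.4.

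The remaining Ciita regions fell less. chr16:10499143-10499701 went from 23.9 ± 4.52 RPPM (SD, n = 3) in C nB to 4.89 ± 1.18 RPPM (SD, n = 3) in C BMPC (-2.08 ± 0.21, adjusted p = 1.74e-09), and chr16:10503205-10503443 from 4.61 ± 1.59 RPPM (SD, n = 3) to 0.191 ± 0.167 RPPM (SD, n = 3) (-2.21 ± 0.39, adjusted p = 2.04e-05). Of the 11 regions of Ciita, 8 were called lower from nB to BMPC in C and 10 in KO, where 20.1% and 16.9% of all regions were. From nB to GCB, 1 in C and 2 in KO were called lower, where 8.47% and 7.84% of all regions were, and the call in C, at chr16:10491810-10492197, was lost in 6 alternatives, among them those without either C GCB library or without the second or the third C nB library, with log2 fold changes of -1.17 to -0.86. Among 12085 promoter regions on other chromosomes with a mean of at least 5 RPPM, those whose log2 values over the 16 libraries followed the Ciita start most closely were of Ift140 (Pearson's r = 0.957), Ttbk1 (0.955), Slc28a2 (0.953), Eya2 (0.953) and Ltb (0.948), the last encoding lymphotoxin β. These values share the libraries and their depth, and describe likeness of profile only.

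Outside the starts, the class II cluster on chromosome 17 and the surroundings of Cd74 on chromosome 18 held further regions with large falls. Within an intron of H2-Aa, chr17:34422685-34423272 read 42.9, 31.3 and 33.3 RPPM in C nB, 10.1 and 12.6 in C GCB and 3.38, 2.92 and 3.58 in C BMPC, falling at both steps (-1.57 ± 0.25 and -1.52 ± 0.25, adjusted p = 1.37e-05 and 1.27e-05). Upstream of the same gene, chr17:34428589-34428896 read 39.5, 43.3 and 41.1, 23.8 and 24.8 and 5.59, 9.85 and 8.72 RPPM, with a change from nB to BMPC of -2.25 ± 0.20 (adjusted p = 2.13e-10). Upstream of H2-Ab1, chr17:34393437-34393721 read 7.80, 14.5 and 11.5, 3.52 and 1.87 and 1.04, 0.547 and 0 RPPM, a change of -3.03 ± 0.39 (adjusted p = 1.48e-07). In all 3, every C nB library was above every C GCB library and every C GCB library above every C BMPC library. Both regions far upstream of Cd74 were on average at least as open in C GCB as in C nB and then fell. chr18:60954732-60955024 read 12.4, 9.98 and 10.2 RPPM in C nB, 13.6 and 16.4 in C GCB and 0.390, 0.365 and 0.467 in C BMPC. chr18:60951363-60952242 read 47.0, 58.0 and 47.6, 51.0 and 64.2 and 8.19, 10.4 and 11.8 RPPM in the same order, with C GCB overlapping C nB. In KO the former read 11.2 and 12.0 RPPM in nB and 9.91, 14.6, 11.4 and 16.1 in GCB, which overlapped. The latter read 48.7 and 55.3 in KO nB and 31.9, 45.8, 39.0 and 53.8 in KO GCB, where GCB was on average the lower. Of all 60 regions, 3 were at or under 3 reads in every C BMPC library, the Ciita regions starting at 10491810 and 10503205 and the first of this pair, and that floor of 3 reads covers counting error only, since reads carried no molecular identifiers. The Cd74 pair changed from GCB to BMPC by -3.50 ± 0.26 and -2.40 ± 0.19 (adjusted p = 1.73e-11 and 4.01e-11).

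**Figure D3:**
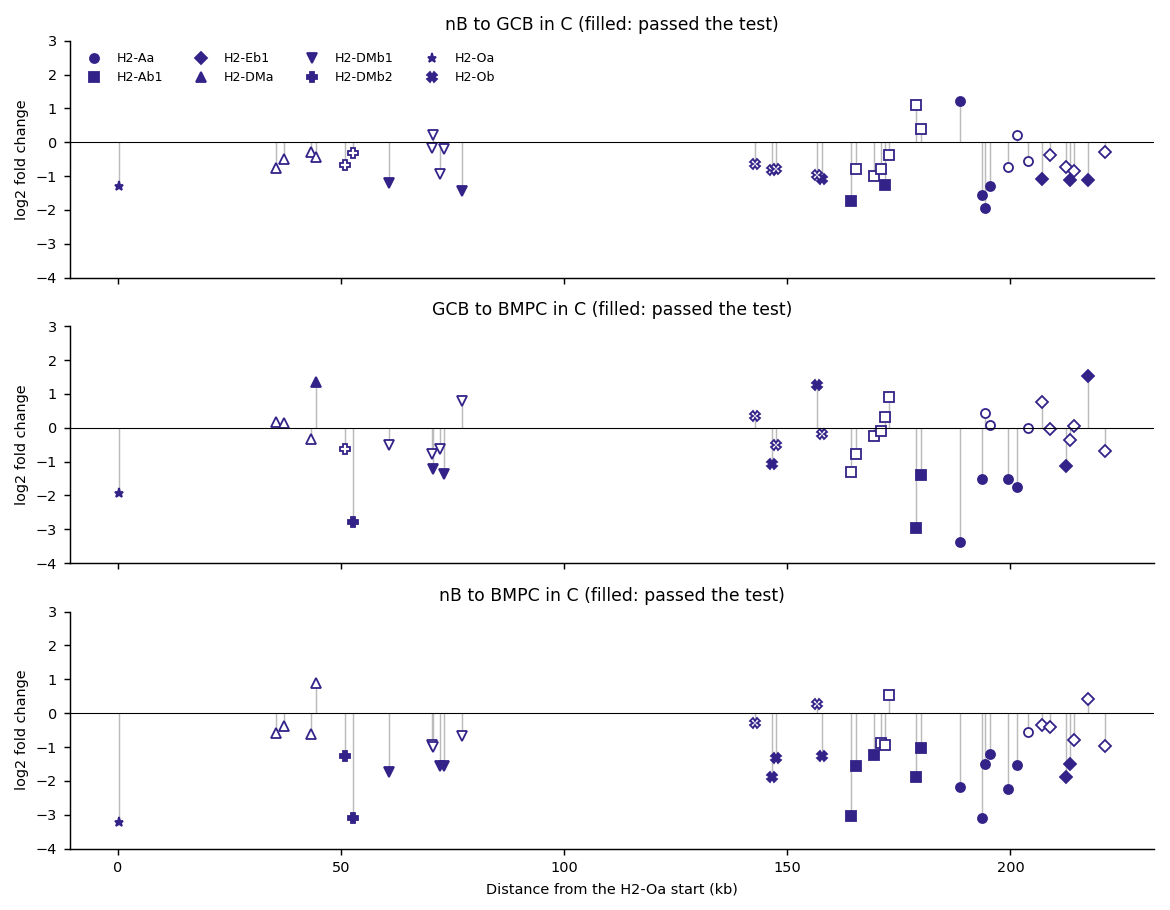
Log2 fold change in C of the 40 class II regions on chromosome 17 against their distance from the H2-Oa start (kb), for nB to GCB (top), GCB to BMPC (middle) and nB to BMPC (bottom); symbols mark the gene and filled symbols passed the test. Most changes are below 0, and from nB to BMPC no filled symbol lies above 0.

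A few regions went the other way at one step. From nB to GCB, 2 of the 60 were called higher in C and 3 in KO, where 14.2% and 18.4% of all regions were. In C these were chr17:34417997-34418202 in an intron of a long H2-Aa transcript and chr18:60973280-60974000 downstream of Cd74. The first read 6.82, 3.01 and 5.96 RPPM in C nB, 12.8 and 13.1 in C GCB and 0.260, 0.912 and 0 in C BMPC, a change of 1.21 ± 0.33 to GCB (adjusted p = 0.00437), and this call was lost in 7 alternatives, among them those without either C GCB library or without the second C nB library, with log2 fold changes of 0.82 to 1.36 and adjusted p up to 0.101. The Cd74 region read 34.6, 25.4 and 29.6, 76.5 and 114 and 9.75, 7.30 and 12.0 RPPM, a change of 1.63 ± 0.22 (adjusted p = 9.12e-07). GCB stood above both other cell types at each of them. KO added chr17:34407985-34408226 downstream of H2-Ab1, with a change of 1.12 ± 0.34 there (adjusted p = 0.00799) and no call in C (adjusted p = 0.0147). All 3 then fell to BMPC in C, by 3.38, 3.17 and 2.98 on the log2 scale. From GCB to BMPC, 3 were called higher in C and 2 in KO, where 11.3% and 12.1% of all regions were. These were chr17:34446467-34447111 in H2-Eb1, chr17:34273461-34273953 in an intron of H2-DMa and, in C alone, chr17:34385549-34386145 in an intron of H2-Ob, a difference between genotypes that the interaction did not call. The H2-Eb1 region read 13.6, 10.4 and 13.0 RPPM in C nB, 6.16 and 4.22 in C GCB and 11.6, 22.3 and 17.8 in C BMPC, a change from GCB to BMPC of 1.53 ± 0.29 (adjusted p = 7e-05). BMPC overlapped nB there, and the same held for the H2-Ob region, at 15.6, 12.6 and 13.0, 7.48 and 5.62 and 14.8, 18.2 and 17.6 RPPM. The H2-DMa region read 6.82, 5.27 and 5.58, 5.72 and 2.81 and 11.2, 13.0 and 11.4 RPPM, with every BMPC library above every other C library. Its change was 1.34 ± 0.30 from GCB (adjusted p = 0.000512) and 0.90 ± 0.27 from nB (adjusted p = 0.00563), the latter under 2-fold. In KO it read 5.92 and 6.30 RPPM in nB and 9.84 and 5.60 in BMPC, which overlapped. Without the second C GCB library the change from GCB in C was 0.93 (adjusted p = 0.0359) and no longer called. All but the H2-Aa region among these were picked out after their values were seen.

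Counted by step, 13 of the 60 regions were called lower from nB to GCB in C and 16 in KO, where 8.47% and 7.84% of all regions were. From GCB to BMPC the counts were 24 in C and 23 in KO, against 19.1% and 19.9% of all regions. Of the 35 called lower from nB to BMPC in C, 9 were also called lower at the step to GCB, 23 at the step from GCB, 3 of these at both, and 6 at neither alone. Promoters and other regions reached the same median from nB to BMPC, -1.30 and -1.30, but by different steps: from nB to GCB the medians were -0.90 at the 18 promoter regions and -0.38 at the 42 others, and from GCB to BMPC they were -0.44 and -0.88. All promoter regions of the table had medians of -0.18 and 0.30 at these steps and all others 0.15 and -0.21. The contrasts share the GCB libraries, and no test was run on the difference between the sets. Only 2 C GCB libraries stood behind the step from nB to GCB in C, and its 15 calls became 9 when the second of them was left out. By gene, the 35 were 8 regions of Ciita, 6 of H2-Aa, 5 of H2-Ab1, 5 of Cd74, 3 of H2-DMb1, 3 of H2-Ob, 2 of H2-Eb1, 2 of H2-DMb2, 1 of H2-Oa and 0 of H2-DMa. Of the 60 regions, 47 were called in at least 1 of the 6 comparisons of cell types and 13 in none, where 60.2% of all regions were called in at least 1. The 38 regions that are neither nearest to a start nor among the 12 with the largest changes ranged from -1.88 to 0.90 from nB to BMPC in C, with a median of -0.97 and 17 called lower.

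**Figure D4:**
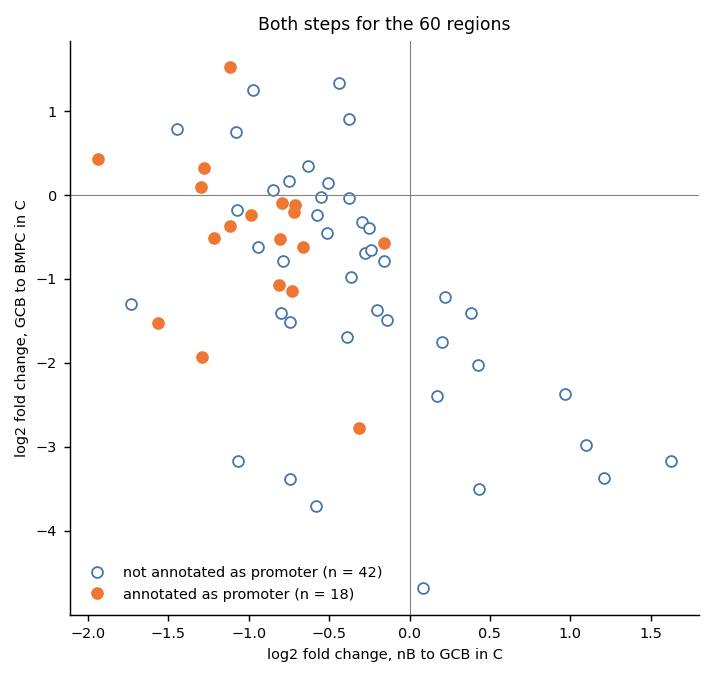
Log2 fold change from nB to GCB (x axis) and from GCB to BMPC (y axis) in C for the 60 regions, promoter regions filled; both axes use the same GCB libraries. All 18 promoter regions lie left of 0 and several other regions lie right of 0 and far below it.

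The loss of both methyltransferases was compared in each cell type. Against C, KO showed 0 of the 60 regions called in nB, GCB or BMPC by limma, where 0.0%, 0.0317% and 0.104% of all regions were called, and edgeR, DESeq2 and limma-voom on the recovered reads called 0 of the 60 as well. In BMPC these tools called more of all regions than limma did, 1.81% by edgeR's quasi-likelihood test, 0.746% by DESeq2 and 2.10% by limma-voom. At an unadjusted p under 0.05, limma gave 0 in nB and 15 lower and 0 higher in GCB. In BMPC it gave 8 lower and 2 higher. Over all regions the shares lower were 1.04% in nB, 4.34% in GCB and 2.59% in BMPC, and those higher 0.630%, 7.45% and 6.96%. The other tools gave 13 to 17 lower and 3 higher of the 60 in BMPC, where 9.36% of all regions were lower by edgeR's quasi-likelihood test, 5.64% by DESeq2 and 10.6% by limma-voom. The 15 in GCB were 4 regions of H2-Aa, 5 of Cd74, 3 of H2-Eb1 and 1 each of H2-DMa, H2-DMb1 and H2-DMb2, with 0 of Ciita, and none of them passed adjustment. The smallest adjusted p was at chr17:34430323-34431001 upstream of H2-Aa, where C GCB read 100.3 and 109 RPPM and KO GCB 69.4, 63.0, 91.6 and 72.7 (-0.50 ± 0.13, adjusted p = 0.0869). All 4 KO libraries were below both C libraries there. The C GCB pools were female (F2) and male (M1), and the KO pools female (F1, F2 and F3) and male (M1). In that order, reads in regions numbered 2273600 and 2134829 in C and 907959, 1571145, 2280954 and 1430371 in KO. Sex and depth thus differed between genotypes in GCB, and their part in these values was not tested. Over the 60 regions the median of KO against C was 0.01 in nB, -0.20 in GCB and -0.14 in BMPC, beside -0.01, 0.03 and 0.03 over all regions. In BMPC the lowest unadjusted p was at chr17:34443273-34443753 in H2-Eb1, with 15.5, 16.8 and 15.3 RPPM in C and 8.38 and 10.6 in KO (-0.69 ± 0.20, adjusted p = 0.119). The Ciita start in BMPC differed by -0.42 ± 0.18 (adjusted p = 0.412) and the H2-Ob start by -0.40 ± 0.14 (adjusted p = 0.238); the 2 KO libraries of H2-Ob lay below the 3 C libraries.

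The fall from nB to BMPC took place in both genotypes. In KO, 41 of the 60 regions were called lower and 0 higher, where 16.9% and 18.4% of all regions were, with a median of -1.44. These 41 included all 35 of C, and the 6 others, 2 of H2-Ab1, 2 of Ciita and 1 each of Cd74 and H2-Eb1, had log2 fold changes of -0.95 to -0.79 in C. The test of the difference itself, the interaction of genotype with the change from nB to BMPC, called 0 of the 60, as it did 0.0% of all regions, and at an unadjusted p under 0.05 limma gave 1 lower and 0 higher, where 1.30% and 3.95% of all regions were. There edgeR's quasi-likelihood test gave 14 lower and 2 higher, against 4.83% and 5.87% of all regions, and DESeq2 6 lower and 0 higher, against 2.88% and 4.14%. For the change from GCB to BMPC the interaction by limma again called 0, with 0.0% of all regions. At an unadjusted p under 0.05 it gave 8 higher and 1 lower, where 4.63% of all regions were higher and 3.70% lower. At the starts the lowest p was at H2-DMb2, where the change in KO minus that in C was not called (0.67 ± 0.20, adjusted p = 0.298).

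**Figure D5:**
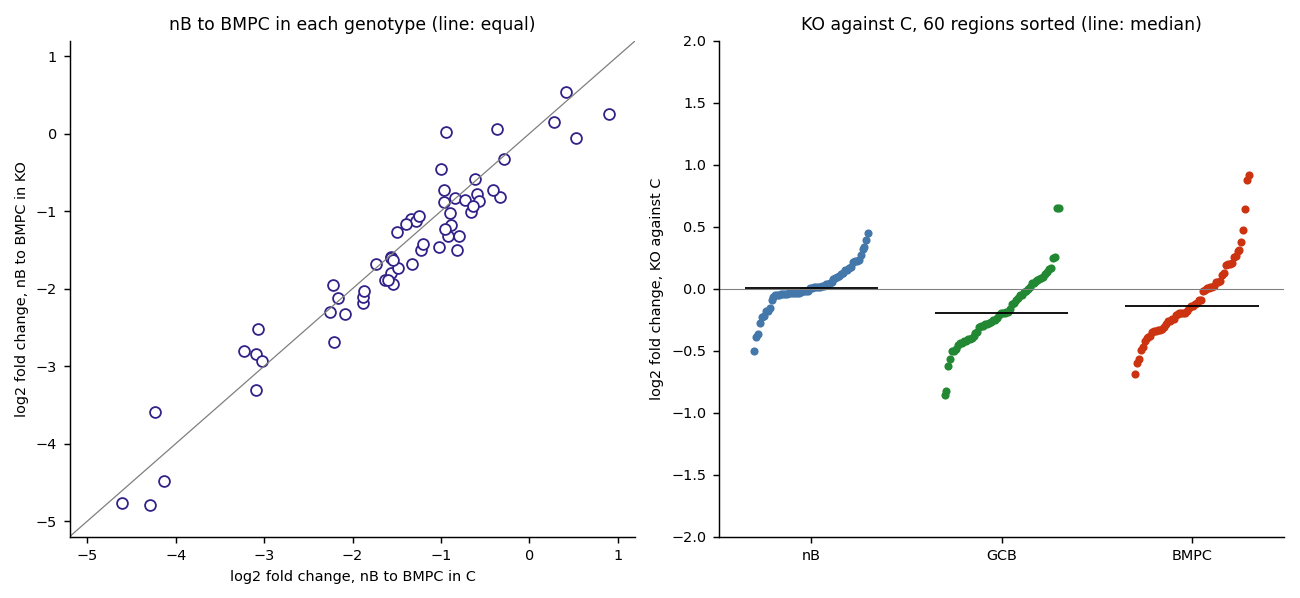
Left, change between nB and BMPC (log2) in C (x) and KO (y) for the 60 regions, with the line of equality. Right, log2 fold change of KO against C for the 60 regions in each cell type, sorted, with the median as a line at 0.01 in nB, -0.20 in GCB and -0.14 in BMPC; no region passed the test.

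Other genes of the pathway were taken from lists, each by the region nearest its start. The factors that bind class II promoters, Rfx5, Rfxap, Rfxank, Nfya, Nfyb, Nfyc and Creb1, showed 0 of 7 regions called from nB to BMPC in C, with a median log2 fold change of 0.04. Of all promoter regions, 6.41% were called lower and 11.2% higher in this comparison, and 0 calls in a list of this size are not read as a difference from them. Among 9 factors known to act on Ciita, Pax5, which maintains B cell identity, fell by 3.44 and Spib, an ETS factor of B cells, by 1.30 on the log2 scale. Prdm1, which encodes the plasma cell repressor Blimp-1, rose from GCB to BMPC by 1.05 and measured 0.56 from nB, not called. The 7 antigen processing genes, Ctss, Ctsb, Ctsd, Ctsl, Lgmn, Ifi30 and Cd1d1, had 0 calls from nB to BMPC. From GCB to BMPC, Cd1d1, a lipid-presenting molecule, rose by 1.64 after falling by 1.29 from nB to GCB. March1, a ubiquitin ligase that turns over surface class II, fell by 3.24 from nB to BMPC while March8 rose by 2.51. Of the costimulators, Cd86 fell by 1.59, Cd80 rose by 2.76 and Cd40 measured -0.75, not called. The class I pathway had 0 of 8 regions called in either direction from nB to BMPC in C, with a median of 0.14, which is again read against the shares over all promoter regions. H2-K1 measured 0.25 and Psmb9 0.06. Medians from nB to GCB in C were -0.58 for class I, -0.47 for the promoter binding factors and -0.80 for the 10 starts. All promoter regions had -0.18, and a fall at this step was not particular to class II. In C neither list had a call there, where 6.99% of all promoter regions were called lower and 8.88% higher. In KO, 3 of the 8 class I regions were called lower and 1 of the 7 factors higher. Over all promoter regions these shares were 7.22% and 10.4%, and over all other regions 8.01% and 20.7%. The factor called higher was Rfxap, by a weak region at -7554 bases from its start that was not annotated as promoter. It averaged 1.84 RPPM in KO nB and 6.10 in KO GCB. Nlrc5 in the class I list also stood by a region not annotated as promoter, at 9520 bases. Among 7 neighbours, H2-Eb2, another class II β gene, and Btnl2 fell from nB to BMPC in C, by 1.51 and 1.54. Brd2, Dexi, Clec16a, Tcof1 and Rps14 were not called. H2-K1 averaged 79.5 RPPM in C nB, 39.7 in C GCB and 94.8 in C BMPC, a rise of 1.23 on the log2 scale from GCB to BMPC.

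The sorted cells were checked against defining markers. Reads in regions numbered 4104875 to 6079018 in nB libraries, 907959 to 2280954 in GCB and 5357687 to 8232313 in BMPC, so that GCB values are the least precise. In C, 6 of 8 B lineage marker regions were called lower from nB to BMPC, where 20.1% of all regions were. Of the plasma cell marker regions, 3 of 8 were called higher (Tnfrsf17, Fkbp11 and Creld2), where 18.0% of all regions were. The regions of Creld2 and of Sdc1, which encodes CD138, lay 3659 and 1223 bases from their starts and were not annotated as promoter. Summed over 8 regions, the B lineage markers read 293 to 319 RPPM in C nB, 227 to 238 in C GCB and 79.1 to 86.3 in C BMPC, and the 8 plasma cell marker regions read 225 to 246, 200.1 to 201.4 and 334 to 371. For other cells that a sort could hold, the 7 myeloid and dendritic marker regions that were measured, of 10 genes, summed to 88.7 to 102 RPPM in C nB, 137 to 142 in C GCB and 107 to 111 in C BMPC. The 3 T cell regions, of 6 genes, summed to 63.5 to 67.6, 23.8 to 27.6 and 54.8 to 61.9 RPPM. The natural killer region at Klrb1c read 0.558 to 1.95, 4.68 to 4.84 and 2.60 to 3.58 RPPM. On average in C BMPC, the myeloid and dendritic regions Itgax, Mpo, Itgam, Csf1r and Csf3r read 0.390 to 2.53 RPPM, Flt3 47.6 RPPM and Zbtb46 55.2 RPPM, the last 2 against 18.2 and 32.9 RPPM in C nB. None of the T cell regions was annotated as promoter. Their distances to the start were 4219 bases at Cd3d, -5589 at Cd4 and -5367 at Cd3e. The Cd3d region averaged 62.3 RPPM in C nB, most of the T cell sum there, and the Cd4 region rose by 3.18 from nB to BMPC. Csf3r, Itgax, Csf1r and Mpo also stood by regions away from their starts, at -5158, 4019, 2504 and 14512 bases. Such regions need not follow the genes they are named for, so these sums do not measure other cells. From nB to BMPC in C, 5 of the 7 myeloid and dendritic regions were called lower and 1, Flt3, higher, beside the 20.1% and 18.0% of all regions. The part of other cells in the changes above was not tested.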

How the data were processed

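ATAC-seq was made from 17 labelled samples, of which 16 had a column and were used. Per the methods, the authors aligned reads to mm9 with Bowtie, called peaks with MACS2 at a q of 0.01 and took the union over samples. The deposited values are RPPM, an RPM scale in which the authors scaled each region to the library's total over all regions, so that a change in some regions shifts the rest. Columns with the authors' own fold changes, p-values and FDR were not used.

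Whole reads were recovered from the RPPM steps for every value, within a tolerance of 0.01, and 3 reads equaled 0.364 to 3.30 RPPM in the libraries. The 6 groups were fitted together with limma 3.58.1 (R 4.3.3), with a variance trend, on log2(RPPM + 1) over 66177 regions without a filter, and p-values were adjusted by Benjamini-Hochberg over all of them. The alternatives were edgeR 4.0.16, DESeq2 1.42.0 and limma-voom on the recovered reads, other pseudocounts (0.1 and 5 RPPM), a filter of 1 RPPM, TMM or quantile scaling, fits of the compared groups only, no variance trend, an adjusted p of 0.05, GCB of a single sex and each library left out. Exons, introns and starts came from GENCODE vM1, and sequences from NCBIM37 (mm9).

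The genes, lists and tests were chosen with earlier results of these data known. Every library is given for the region nearest each gene's start. Of the other regions, the 12 called with the largest change from nB to BMPC in C are named, and the rest are given by ranges and counts. Genes of other lists stand by the region nearest their start, and likeness to Ciita was ranked by Pearson's r among promoter regions on other chromosomes. Some marker results are not reported here.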

Additional observations from a re-analysis of the deposited data

How the results depend on the processing

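With 2 or 3 libraries in most groups and the fewest reads in GCB, small changes at weak regions could not be resolved, and sex cannot be told apart from cell type between nB and BMPC. The count of called regions moved by more than 1.5 times under a pseudocount of 5 RPPM, to 9 from nB to GCB in C, 11 from nB to GCB in KO and 15 from GCB to BMPC in KO. Leaving out each library in turn gave 9 to 16 calls from nB to GCB in C, the 9 without the second C GCB library, and the cause was not tested. Quantile normalization moved the split over all regions, from 9427 higher and 5602 lower to 7418 and 7053 from nB to GCB in C, and from 7474 and 12636 to 9585 and 9871 from GCB to BMPC, and the median of all regions in the former from 0.05 to -0.06. In KO the same splits moved from 12205 and 5188 to 7679 and 7477, and from 8013 and 13138 to 10270 and 10345. The other counts of called regions among the 60 stayed within 1.5 times in the alternatives run, and among the 60 all tools and left-out libraries gave 0 calls for genotype and its interactions. Over all regions the tools differed: KO against C in BMPC had 60 higher and 9 lower by limma, 962 and 239 by edgeR, 1164 and 229 by limma-voom and 409 and 85 by DESeq2, and the interaction with nB to BMPC 0 by limma, 35 and 14 by edgeR, 25 and 10 by limma-voom and 21 and 7 by DESeq2.

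Single values that changed sign were small and not called. The H2-Aa start from GCB to BMPC in C was -0.20 with quantile normalization. The Cd74 start from nB to GCB in C was 0.053 with GCB of the same sex, and -0.37 to 0.053 with libraries left out. With libraries left out, the H2-Ab1 start from GCB to BMPC in C ranged from -0.21 to 0.043, and the Ciita intron region starting at 10495875 from nB to GCB in C from -0.059 to 0.23. In KO from nB to BMPC, the H2-DMa intron region ranged from -0.11 to 0.61 and the H2-Ob intron region from -0.017 to 0.32. Of 3078 values of named regions under alternatives, 2989 kept their direction and side of the threshold, 51 lost a call and 31 gained one.

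C and KO GCB each have a pool called F2 and a pool called M1. With these as a replicate block, 0 of the 60 regions were called in KO against C GCB, and a fit of the same 4 libraries without the block, chosen after seeing the data, also called 0. The difference between F2 and M1 in C and in KO correlated across regions with r = 0.063. This rests on a single difference in each genotype, from the libraries with the fewest reads. It therefore cannot show whether the pools share more than a name, and the main fit used no block.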
